A study of Homo sapiens with 6 samples.

Results

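The genes described here are the receptors MET and MST1R, their ligands HGF and MST1, the proteases HGFAC, ST14 and HPN that activate those ligands, and the protease inhibitors SPINT1 and SPINT2. They were taken by symbol, and all 9 were present among the 24432 gene symbols with values. RNA sequencing was done on 6 libraries in 2 groups of 3, all labelled PLC/PRF/5, a cell line from a human hepatocellular carcinoma. The sensitive libraries carry the genotype label WT and the treatment label control. The resistant libraries carry the genotype label Lenvatinib resistant and the treatment label Lenvatinib, a kinase inhibitor of VEGF and FGF receptors used against liver cancer. Both groups grew in DMEM with 10% serum. The labels put the selection of the resistant cells at 20 µmol/L to begin with, steps of 0.5 mmol/L at passage and growth at 40 mmol/L at the end, and these units are at odds with each other. Drug exposure and resistance coincide in the same libraries and cannot be told apart. No label says that replicates were separate cultures, so p-values refer only to the variation among these libraries and that variation may be technical. Values of a group are given in the order of replicates 1, 2 and 3.

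MET is a receptor tyrosine kinase that drives growth, scattering and survival of epithelial cells, hepatocytes included. Its ligand HGF, hepatocyte growth factor, is made in the liver mainly by stellate and other stromal cells and is secreted as an inactive single chain. Cutting by HGFAC (HGF activator), ST14 (matriptase) or HPN (hepsin) turns it into the active form, and the Kunitz-type inhibitors SPINT1 (HAI-1) and SPINT2 (HAI-2) block these proteases. MST1R, also called RON, is the closest relative of MET. Its ligand MST1, macrophage-stimulating protein, is a relative of HGF that is made by hepatocytes and activated by the same kind of cut.

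The 2 groups were far apart in general. Across the 11694 genes tested, Pearson's r of log2(FPKM + 1) between libraries was 0.9939 to 0.9960 within the resistant group, 0.9515 to 0.9947 within the sensitive group and 0.6796 to 0.7064 between groups (genes are not independent replicates). FPKM scales the fragments of a gene by transcript length and by library size. Of 19 hepatocyte markers, 18 were tested and all 18 were lower in the resistant libraries, 9 of them under 1 FPKM in every resistant library. Their summed level was 5512.3 to 5826.9 FPKM in the sensitive libraries and 23.2, 55.7 and 23.8 FPKM in the resistant libraries, where TTR was listed at 0 in each. The defining markers of the labelled cell type were thus nearly absent from the resistant libraries, so every direction given below is between libraries as their labels name them. Sensitive replicate 3 stood apart from the other sensitive libraries in relation to transcript length. On the log2(FPKM + 1) scale its median difference from the mean of sensitive replicates 1 and 2 was 0.18 for 2254 genes with a longest coding transcript under 2 kb and -0.44 for 1887 genes over 6 kb.

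Both receptors and both inhibitors were higher in the resistant libraries, and the ligand MST1 and the protease HPN were lower. These 6 genes reached 1 FPKM in at least 3 libraries and were tested, and limma called all 6 at a Benjamini-Hochberg adjusted p under 0.05, adjusted over all tested genes. That threshold was passed by 67.7% of all tested genes, 35.2% as higher and 32.5% as lower, so a call by itself says little about these genes. MST1R and SPINT1 reached the filter only in the resistant libraries, and HPN and MST1 only in the sensitive libraries, which fixed their direction. MET and SPINT2 were at 1 FPKM or more in all 6 libraries. The groups did not overlap for any of the 6 tested genes, but for MST1R, SPINT1, HPN and MST1 the filter fixed this too. Only MET and SPINT2 were free to overlap and did not, as did not 74.4% of all tested genes. HGF, HGFAC and ST14 stayed below 1 FPKM in every library and were not tested.

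**Figure D1:**
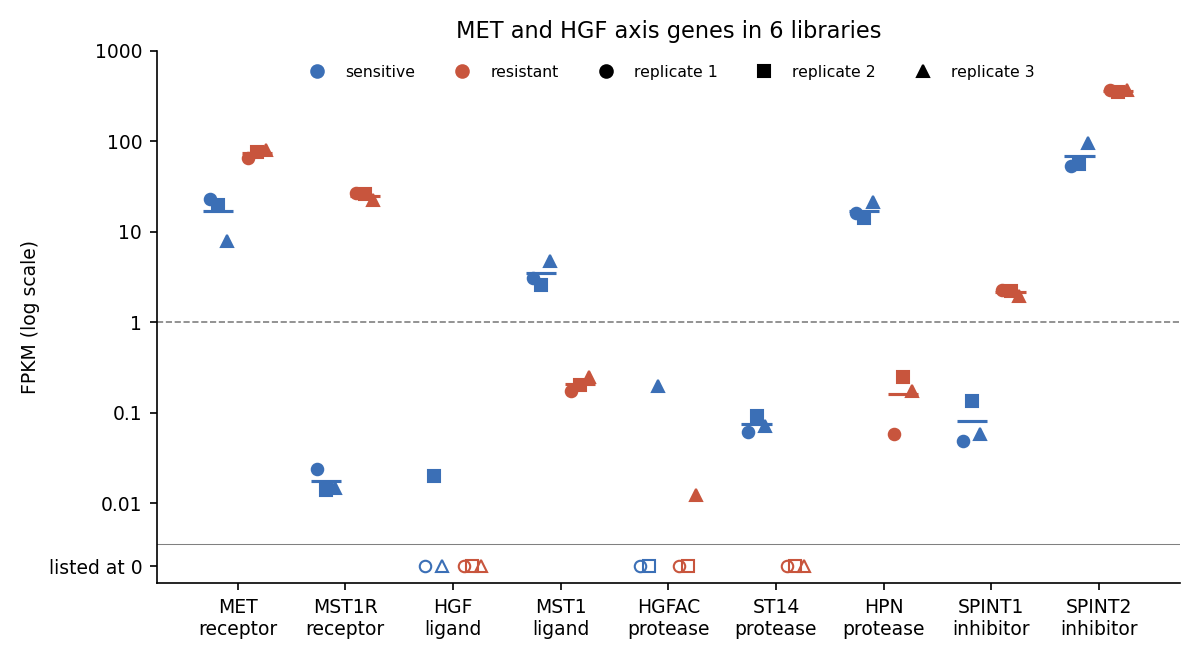
FPKM of the 9 genes in each library (log axis, 1 symbol per library, horizontal bars for the group mean where no library was at 0, open symbols for values listed at 0, dashed line at 1 FPKM). MET, MST1R, SPINT1 and SPINT2 sit higher in the 3 resistant libraries, MST1 and HPN sit lower, and HGF, HGFAC and ST14 lie under the dashed line throughout.

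MET was expressed in both groups. It stood at 22.8, 19.7 and 7.91 FPKM in the sensitive libraries and at 65.8, 76.9 and 79.4 FPKM in the resistant libraries. Every resistant library was above every sensitive one, and sensitive replicate 3 was the lowest of all. The mean rose from 16.8 ± 7.84 to 74.0 ± 7.21 FPKM (SD, n = 3 in each group), a log2 fold change of 2.19 (SE 0.357, adjusted p = 0.00142 in limma). Fold changes here and below are on the log2(FPKM + 1) scale, which understates the change of genes at low values.

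The size of the MET difference moved with sensitive replicate 3. Without it the log2 fold change of MET was 1.75, and leaving out any other library gave up to 2.46. MET has a longest coding transcript of 6635 bases in GENCODE release 29, and its log2(FPKM + 1) in sensitive replicate 3 differed by -1.32 from the mean of sensitive replicates 1 and 2, against a median difference of -0.44 for transcripts over 6 kb. Over those long transcripts the median log2 fold change between the groups was 0.30 with all libraries and 0.12 without sensitive replicate 3. The part of transcript length in the MET value was not tested.

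**Figure D2:**
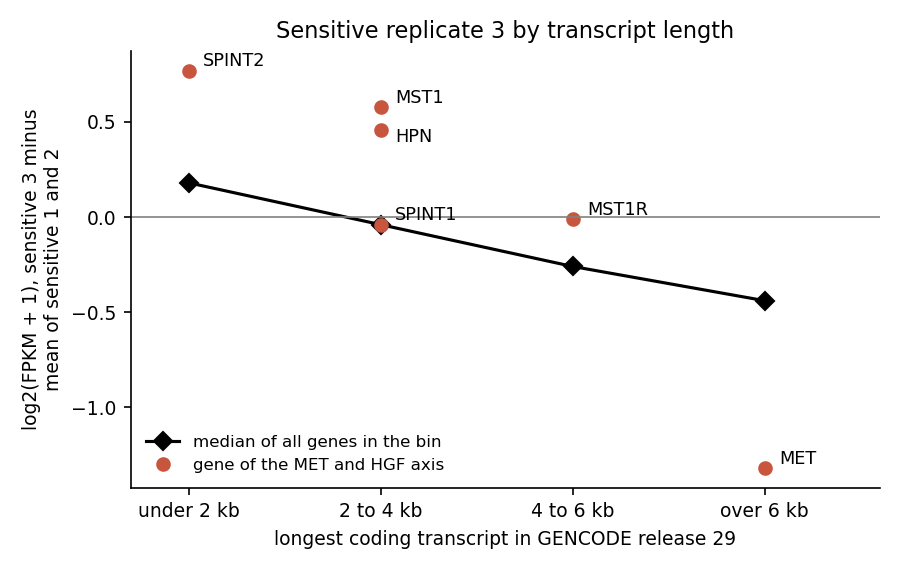
Difference in log2(FPKM + 1) between sensitive replicate 3 and the mean of sensitive replicates 1 and 2 (vertical axis) by length of the longest coding transcript (horizontal axis), as the median of all genes in each bin (diamonds) and for each tested gene of the axis (circles). The bin medians run from 0.18 under 2 kb to -0.44 over 6 kb, with MET at -1.32 and SPINT2 at 0.77.

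MST1R went from very low values to a well expressed gene. It was measured at 0.0238, 0.0141 and 0.0146 FPKM in the sensitive libraries. These values fit whole multiples, within 0.02 of a step, of about 0.00475 FPKM, which put them at 5, 3 and 3 reads or more. In the resistant libraries it was 26.5, 25.8 and 22.2 FPKM. The log2 fold change was 4.66 (SE 0.118, adjusted p = 4.41e-07 in limma). MST1R thus made up 0.0715% to 0.184% of the summed FPKM of both receptors in the sensitive libraries and 21.9% to 28.7% in the resistant ones.

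The stretch of 250 bases before the start site is shown for MET and MST1R, the receptors that rose, and for HPN, the protease that fell, from RefSeq on GRCh38.p14. Capitals mark GC boxes (GGGCGG or its reverse complement CCGCCC, to which SP1 binds) and, in MST1R, an ETS-type motif (CCGGAAG). The MET window is chr7:116671946-116672195 on the plus strand, the MST1R window chr3:49903874-49904123 on the minus strand and the HPN window chr19:35041471-35041720 on the plus strand.
MET: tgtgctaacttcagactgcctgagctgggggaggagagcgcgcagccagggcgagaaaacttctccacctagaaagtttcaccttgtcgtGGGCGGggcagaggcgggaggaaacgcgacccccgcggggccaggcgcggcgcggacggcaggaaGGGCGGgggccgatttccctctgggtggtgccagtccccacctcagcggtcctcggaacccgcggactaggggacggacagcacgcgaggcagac
MST1R: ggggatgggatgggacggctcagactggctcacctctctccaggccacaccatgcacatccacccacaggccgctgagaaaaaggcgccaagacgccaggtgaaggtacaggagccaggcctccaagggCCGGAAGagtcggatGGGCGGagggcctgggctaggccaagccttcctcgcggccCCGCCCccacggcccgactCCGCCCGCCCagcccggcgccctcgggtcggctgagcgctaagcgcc
HPN: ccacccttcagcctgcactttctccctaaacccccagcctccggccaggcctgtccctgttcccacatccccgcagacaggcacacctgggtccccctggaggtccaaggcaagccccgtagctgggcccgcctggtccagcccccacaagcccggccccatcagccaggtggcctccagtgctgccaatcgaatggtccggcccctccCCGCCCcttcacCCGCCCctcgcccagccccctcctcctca

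All 3 windows were rich in G and C, at 68.4% for MET, 70.8% for MST1R and 70.4% for HPN, against a median of 58.0% over 35116 RefSeq promoters (quartiles 46.4% and 68.0%). GC boxes were found 2 times in MET, 4 times in MST1R, with a pair that overlaps, and 2 times in HPN. A GC box is present in 42.6% of all promoters of this length and the ETS-type motif CCGGAAG in 8.52%. RefSeq promoters were matched for 7 of the 9 genes, in 8 windows because SPINT1 has a pair of start sites, and ST14 and SPINT2 had no entry. The AP-1 motif TGANTCA, present in 6.57% of all promoters, was in 0 of the 8 windows. The HNF1 element GTTAAT, present in 6.23% of all promoters, was found in the windows of HGF and HGFAC. Both strands were searched, a match is a description of letters only, and these windows hold GC boxes in genes that rose and in a gene that fell.

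Among receptor tyrosine kinases, MET kept a high place in both groups and MST1R entered the upper ranks. Of the 58 receptor genes listed, 56 had values. By FPKM, which is per length, MET ranked 5, 5 and 12 in the sensitive libraries and 4 in each resistant library. By group mean its neighbours in the sensitive libraries were DDR1 at 17.1 ± 2.44 and EPHA2 at 14.6 ± 3.75 FPKM, which did not differ from MET beyond the spread. In the resistant libraries the next above was EGFR at 109 ± 11.7 FPKM and the next below was DDR1 at 27.4 ± 1.05 FPKM, and neither overlapped with MET. MST1R ranked 37, 36 and 36 in the sensitive libraries and 6, 6 and 8 in the resistant libraries. In each library MET was below EGFR, at 0.689 to 0.949 of the EGFR level in the sensitive and 0.606 to 0.810 in the resistant libraries. EGFR followed the same order of sensitive libraries as MET in that replicate 3 was lowest, with 27.9, 28.6 and 8.33 FPKM in replicates 1, 2 and 3.

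Over the whole receptor list, 15 of 26 tested genes were higher, 6 lower and 5 did not pass, with a median log2 fold change of 0.75 against 0.08 over all tested genes. MST1R had the largest rise of the list, followed by the ephrin receptor EPHA2 (log2 4.49). The fibroblast growth factor receptors FGFR3 and FGFR4 had the largest falls (-4.63 and -4.07). Of the 26 tested genes 8, MST1R and FGFR3 among them, passed the filter through 1 group only, which fixed their direction.

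**Figure D3:**
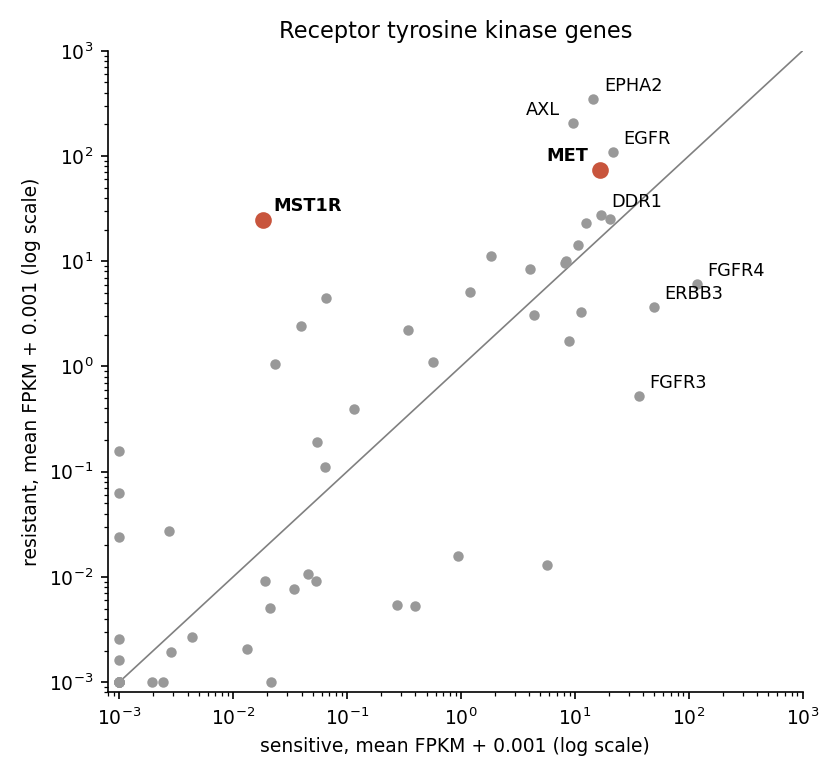
Mean FPKM of 56 receptor tyrosine kinase genes in the sensitive (horizontal) and resistant (vertical) libraries, 0.001 FPKM added, log axes, n = 3 libraries in each mean, with a line of equal level. MET lies above the line at 16.8 and 74.0 FPKM, and MST1R rises from the far left at 0.0175 to 24.8 FPKM.

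Ligand transcripts were scarce in both groups. HGF was listed at 0 in 5 libraries and at 0.020 FPKM in sensitive replicate 2, so no library gave a level at which a difference could be read. The fibroblast markers, whose cell type is a usual source of HGF, summed to 0.9 to 1.8 FPKM in the sensitive and 0.1 to 0.3 FPKM in the resistant libraries, and 0 of the 9 in the files were tested. Of the defining markers, COL1A1 reached at most 0.353 FPKM and DCN at most 0.0147 FPKM in any library. Of the stellate cell markers LRAT was listed at 0 in all libraries. Of the 5 stellate markers 2 were tested, and they went opposite ways. RELN, the gene of the secreted protein reelin, fell from a mean of 49.3 FPKM in sensitive to 0.229 FPKM in resistant libraries, and NGFR, a neurotrophin receptor, rose from 0.121 to 6.34 FPKM (log2 -5.33 and 2.71). The marker sum was 36.8 to 58.4 FPKM in the sensitive and 6.2 to 7.7 FPKM in the resistant libraries.

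MST1 was low in the sensitive libraries and lower in the resistant ones. It was at 3.06, 2.60 and 4.69 FPKM in the sensitive libraries and at 0.172, 0.202 and 0.249 FPKM in the resistant libraries. The resistant values correspond to at least 11, 13 and 16 reads. No library of 1 group reached into the range of the other, which the filter fixed in advance. The log2 fold change was -1.85 (SE 0.173, adjusted p = 8.92e-05 in limma). Near-identical pseudogene copies of MST1 exist in the genome, and the gene APEH, at a mean of 49.0 FPKM in sensitive and 32.9 FPKM in resistant libraries, overlaps MST1 in RefSeq. How reads were divided among them is not given in the sources used here, so the level of MST1 is uncertain.

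Of the activating proteases HPN alone was well expressed, and in the sensitive libraries only. HPN, a protease anchored in the membrane of hepatocytes, stood at 16.2, 14.1 and 21.2 FPKM in the sensitive libraries. In the resistant libraries it was 0.0576, 0.248 and 0.171 FPKM, which correspond to at least 3, 13 and 9 reads. The groups were thus separated by a wide gap, with a log2 fold change of -3.95 (SE 0.170, adjusted p = 2.43e-06 in limma). The resistant library with the highest HPN, replicate 2, was also the one with the highest sum of hepatocyte markers. HPN differed between resistant replicates 1 and 3, however, at marker sums of 23.2 and 23.8 FPKM. MST1 was highest in resistant replicate 3 and not in replicate 2. Hepatocyte markers fell with HPN and MST1, as given above, and their part in these falls was not tested. In bulk RNA, fewer cells of a type and less RNA per cell cannot be told apart.

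ST14 was near the limit of detection in sensitive cells. Its values of 0.0610, 0.0905 and 0.0703 FPKM in the sensitive libraries correspond to at least 8, 12 and 9 reads. In all 3 resistant libraries it was listed at 0. It was below the filter, and without any filter, where 44.6% of 22521 genes were called, ST14 was called lower as well (adjusted p = 0.00208 in limma), on a difference of -0.10 on the log2(FPKM + 1) scale. HGFAC was listed at 0 in 4 libraries, at 0.198 FPKM in sensitive replicate 3 and at 0.0121 FPKM in resistant replicate 3, or 16 reads and 1 read. The HGFAC groups overlapped and no difference was detectable at this depth. Apart from HPN, no member of the family of type II transmembrane serine proteases, which holds both HPN and ST14, was tested among the 10 in the files.

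SPINT2 was the most abundant gene of the axis in every library, by FPKM. It stood at 53.8, 56.5 and 94.7 FPKM in the sensitive libraries and at 366, 349 and 373 FPKM in the resistant libraries. Sensitive replicate 3 was the highest of its group and still far below the resistant libraries. The mean rose from 68.3 ± 22.9 to 362 ± 12.1 FPKM (SD, n = 3 in each group), a log2 fold change of 2.44 (SE 0.215, adjusted p = 6.81e-05 in limma).

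SPINT1, the other Kunitz-type inhibitor, rose as well but stayed low. Its sensitive values were 0.0483, 0.135 and 0.0577 FPKM, or at least 6, 17 and 7 reads. In the resistant libraries its values were 2.28, 2.19 and 1.94 FPKM. The log2 fold change was 1.54 (SE 0.0845, adjusted p = 7.11e-06 in limma). The antisense gene SPINT1-AS1 overlaps SPINT1 in RefSeq and was listed at 0 in the sensitive libraries and at 0.366, 0.559 and 0.279 FPKM in the resistant libraries. The strand setting is not given in the sources used here, so reads of this pair may not have been told apart.

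The summed protease level was lower, and the summed inhibitor level higher, in every resistant library than in any sensitive one. The FPKM of ST14, HPN and HGFAC summed to 16.2, 14.1 and 21.4 in the sensitive libraries and to 0.0576, 0.248 and 0.184 in the resistant libraries. The FPKM of SPINT1 and SPINT2 summed to 53.8, 56.6 and 94.8 in the sensitive and to 368, 351 and 375 in the resistant libraries, in the same order. These inhibitors exceeded ST14, HPN and HGFAC together by 3.31 to 4.42 times in the sensitive libraries and by 1417 to 6391 times in the resistant ones. The last range rests on the low HPN and HGFAC values given above and describes mRNA, not protein. It leaves out other proteases that can cut pro-HGF, such as PLAU, which was at 949, 961 and 760 FPKM in the resistant libraries. SPINT2 made up 99.4% to 99.9% of the inhibitor sum.

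**Figure D4:**
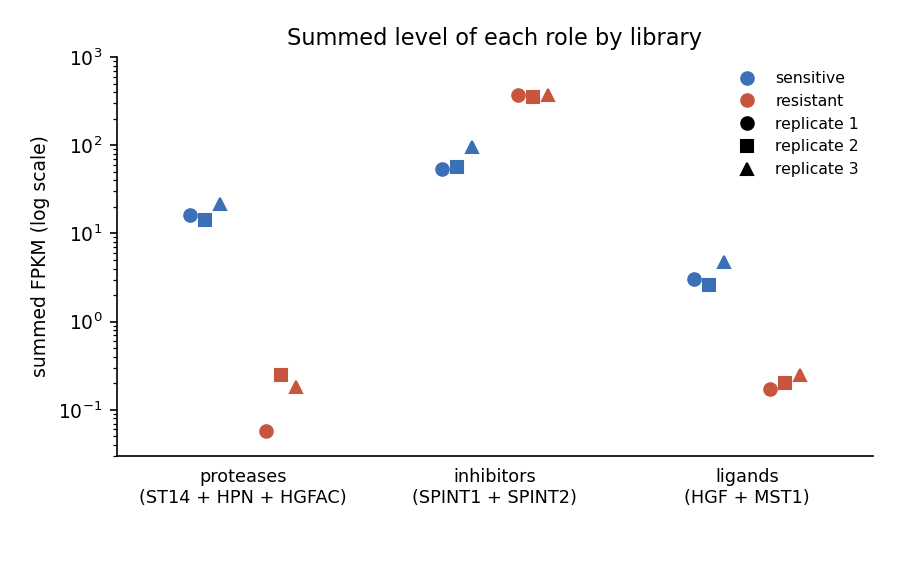
Summed FPKM of the proteases (ST14, HPN and HGFAC), the inhibitors (SPINT1 and SPINT2) and the ligands (HGF and MST1) in each library (log axis, 1 symbol per library). Protease and ligand sums are lower in the 3 resistant libraries, at 0.0576 to 0.248 and 0.172 to 0.249 FPKM, and inhibitor sums are higher, at 351 to 375 FPKM.

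Other proteases that can cut pro-HGF or act in the matriptase cascade went both ways. Of 12 in the files 5 were tested, and 1 was higher and 4 lower. The urokinase gene PLAU was at 0.664, 0.675 and 0.558 FPKM in the sensitive libraries and at 949, 961 and 760 FPKM in the resistant libraries (log2 9.08). The largest falls were those of HABP2, a plasma hyaluronan-binding protease (log2 -6.24), and of prothrombin, F2 (-5.43), which are both secreted by hepatocytes. Coagulation factor XII, F12, which is a relative of HGFAC, fell with them (log2 -3.17) and is named here after its value was seen. Of the 5 tested genes, 4 passed the filter through 1 group only, and hepatocyte markers fell in the same libraries.

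Of the 4 tested inhibitors outside the Kunitz family, 1 was higher and 3 were lower. The broad protease inhibitor A2M and the C1 inhibitor SERPING1 were lower (log2 -7.18 and -5.80). Among substrates of matriptase or hepsin, 2 of 4 tested genes were higher and 2 lower, where 35.2% of all tested genes were higher and 32.5% lower. CDCP1, a transmembrane protein cut by matriptase, went from 0.0718 ± 0.0237 to 135 ± 5.73 FPKM (log2 6.99) and the laminin chain LAMB3 rose by 6.46. Both passed the filter through the resistant libraries only, which fixed their direction. The protease-activated receptor F2RL1 fell by 2.00 and the adhesion molecule EPCAM by 1.24.

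Partner receptors of MET included some of its largest movers. Of 9 tested partners 4 were higher, 3 lower and 2 did not pass, with a median log2 fold change of -0.32. CD44, whose splice forms can present HGF to MET, was at 0.275, 0.353 and 0.252 FPKM in the sensitive libraries and at 105, 107 and 92.1 FPKM in the resistant libraries (log2 6.30). CD44 passed the filter through the resistant libraries only, which fixed its direction. The laminin receptor chain ITGA6 rose from 7.17 ± 3.58 to 70.0 ± 6.18 FPKM (log2 3.24), and its partner ITGB4 and EGFR were the other 2 that rose (2.52 and 2.46). The plexin PLXNB1 fell by 1.54 and the syndecan SDC1, a heparan sulfate carrier, by 0.98. The SDC1 call ended in the test against a 1.5-fold change (limma adjusted p = 0.159). Without sensitive replicate 3, and under quantile normalization, 5 partners were lower in place of 3, and against a 1.5-fold change 1 was. Like MET, ITGA6 was lowest in sensitive replicate 3, and without that library its log2 fold change was 2.79.

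Of 14 tested adaptors and signal relays of MET, 8 were higher, 1 lower and 5 not past the test, with a median log2 fold change of 0.75. Over all tested genes 35.2% were higher and 32.5% lower. The adaptor SHC1 rose from 16.0 ± 2.58 to 268 ± 15.4 FPKM (log2 3.99) and the adaptor CRK from 25.5 ± 8.97 to 110 ± 7.86 FPKM (2.13). GRB2, which links MET to RAS, was the 1 that fell, by 0.55, and this call was lost without resistant replicate 1, 2 or 3 (adjusted p = 0.0548, 0.0595 and 0.0506 in limma). GAB1, the main docking protein of MET, was under the filter at means of 0.224 FPKM in sensitive and 0.273 FPKM in resistant libraries. Against a 1.5-fold change 4 of the 14 were higher and none lower, where 19% of all tested genes were higher and 18.3% lower.

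Genes of MET processing, turnover and dephosphorylation divided evenly, with 6 of 14 tested genes higher, 6 lower and 2 not past the test, and a median of -0.17. FURIN, the convertase that cuts the MET precursor into its chains, was at 272, 298 and 373 FPKM in the sensitive libraries and at 17.8, 17.3 and 17.4 FPKM in the resistant libraries (log2 -4.08). TIMP3, an inhibitor of the proteases that shed the MET ectodomain, fell from 8.37 ± 1.28 to 0.0608 ± 0.0526 FPKM (-3.14). TIMP3 passed the filter through the sensitive libraries only, which fixed its direction. CBL, the ubiquitin ligase that marks active MET for degradation, rose by 1.50 and its partner SH3KBP1 by 1.68. The phosphatases PTPN1 and PTPN2, which act on MET, were also among the 6 that rose (1.04 and 1.30). Against a 1.5-fold change 5 were higher and 2 lower.

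Of 12 genes described as induced by HGF, 8 were tested, and 7 were higher, none lower and 1, SNAI1, did not pass. Among all tested genes 35.2% were higher and 32.5% lower. Without a filter 9 of the 12 were higher and 1 was lower, where 22.9% of all genes were higher and 21.7% lower. The median log2 fold change of the 8 tested genes was 4.62. PLAU led, followed by the transcription factor ETS1 (log2 6.89). PLAU, PLAUR, ETS1, FOSL1 and HBEGF also answer to other growth factor receptors, and 3 of the 8 were under 1 FPKM in every sensitive library. Of the epithelial junction and regulator genes, 3 of 9 tested were higher and 6 lower. E-cadherin, CDH1, and cingulin, CGN, had the largest falls (-3.72 and -3.18), and the claudin CLDN4 and the tricellular junction gene MARVELD2 rose (0.83 and 0.34). The splicing regulator ESRP1 was listed at 0 in sensitive replicates 1 and 2, at 0.0131 FPKM in sensitive replicate 3 and at 3.46, 4.01 and 3.93 FPKM in the resistant libraries. Its paralog ESRP2 went the other way, from 8.52 ± 0.338 to 0.0590 ± 0.0398 FPKM (log2 -3.17). CDH1, ESRP1 and ESRP2 passed the filter through 1 group only, which fixed their direction. Against a 1.5-fold change CLDN4 (limma adjusted p = 0.163) and MARVELD2 were no longer called, which left 1 of the 9 higher. The MARVELD2 call was also lost under quantile normalization, with the replicate block and without any 1 library other than sensitive replicate 3, which left 2 of the 9 higher.

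**Figure D5:**
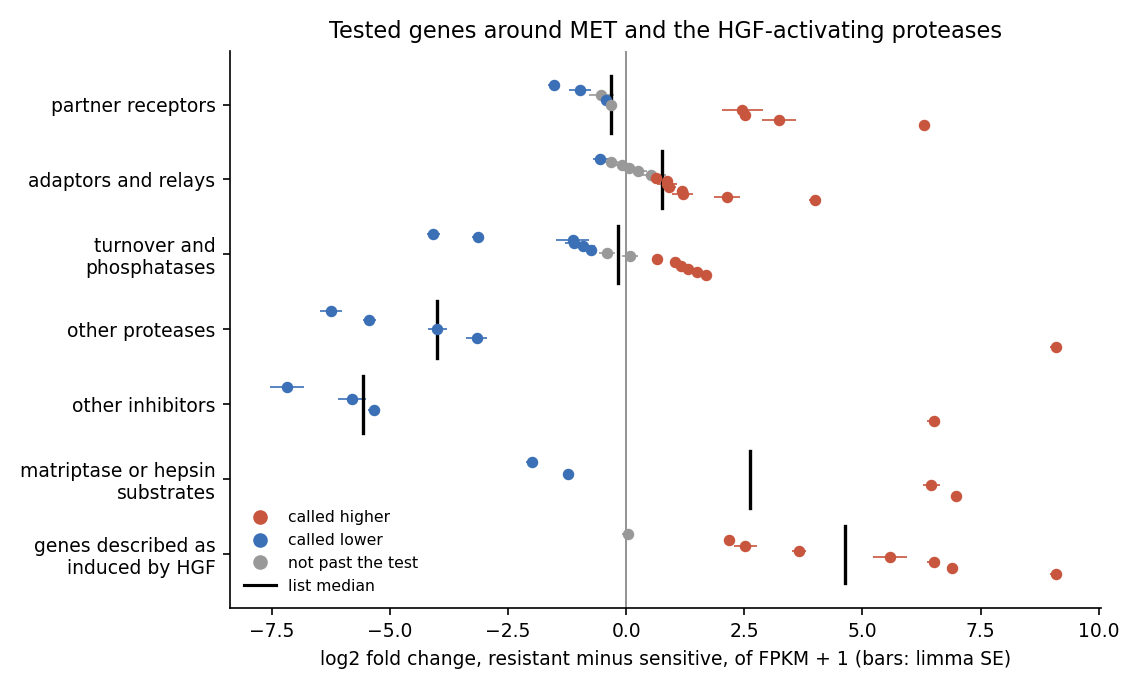
Log2 fold change (resistant minus sensitive, FPKM + 1) of each tested gene in 7 lists around MET and the HGF-activating proteases, with limma standard errors as bars, red and blue for genes called higher and lower, grey for genes not past the test and a black line at each list's median. PLAU stands farthest right at 9.08 and A2M farthest left at -7.18, and the adaptor and turnover lists lie closer to 0 than the protease and inhibitor lists.

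The 3 genes whose profiles over the 6 libraries were nearest to that of MET, by Euclidean distance of centred log2(FPKM + 1) among 11693 genes, were NCOR1, NOTCH2 and EPC2 (distances 0.182, 0.218 and 0.244). Each was lowest in sensitive replicate 3, as MET was, but they were chosen for their likeness over these same libraries. NCOR1, a corepressor of nuclear receptors, was at 12, 10.6 and 4.10 FPKM in the sensitive libraries and at 38.1, 42.0 and 39.0 FPKM in the resistant libraries. NCOR1 and NOTCH2 have longest coding transcripts of 10720 and 11389 bases and EPC2 one of 3649 bases. For MST1R, the tested gene of the axis with the largest change, the nearest profiles were those of the ubiquitin ligase gene MARCHF4 and the ERBB3 and ERBB4 ligand gene NRG1 (distances 0.097 and 0.099). Both were at 0.0526 FPKM or less in each sensitive library and at 21.0 to 27.7 FPKM in the resistant libraries, a likeness that also comes with the choice.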

How the data were processed

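RNA from 6 libraries was sequenced, and the authors deposited 1 table per library with a value per gene symbol. The deposited values behave as FPKM, made by the authors from trimmed and aligned reads; no label names the unit, and RPKM would look alike. The submitters' processing notes name cutadapt, a read trimmer, and HISAT2, an aligner. For the counting program, genome build, annotation and strandedness nothing is given in the sources used here.

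Groups and replicate numbers came from the sample titles. Genes that reached 1 FPKM in 3 or more libraries were fitted together in limma 3.58.1 (R 4.3.3, limma-trend, two-sided) on log2(FPKM + 1), with group as the only term, and called at a Benjamini-Hochberg adjusted p under 0.05. The fit was tested on simulated data. Tables and figures used Python 3.11.15, pandas 2.3.3, numpy 2.4.6 and matplotlib 3.10.9.

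Depth is not given. Low values of a gene were read as whole multiples of the value of 1 read. That value differed by at most 3.46% between libraries. The search allowed only small differences, so close depth was partly assumed. Steps within 0.02 were sought with the smallest value taken as at most 60 reads. They were found for 89.5% of 8704 genes with a mean under 1 FPKM and at least 2 values above 0. A gene with only 2 differing values above 0 always meets this, so the share is no test of the steps. The largest step that fits was taken. Read numbers in the text come from these steps and are the smallest that fit, and no count model was run. A transcript length from GENCODE release 29 was found for 10746 of 11694 tested genes (91.9%).

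The genes, gene lists and tests were chosen with earlier results of these data known. Named beside the 9 genes are, per list, up to 2 called genes with the largest change in each direction without overlap and with a mean of at least 1 FPKM, the neighbours of MET among receptors, the 3 nearest profiles of MET and of the most changed gene, and EGFR, PLAU and CD44. Some genes that meet this rule are not reported here. Other genes (ITGB4, GAB1, F12, PTPN1, PTPN2, SNAI1, MARVELD2, ESRP2, RELN, NGFR, COL1A1, DCN) were named after their values were seen. Alternatives were other normalizations, models, filters, a pseudocount of 0.1, a replicate block, a test against a 1.5-fold change and each library left out.

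Endothelial, leukocyte and cholangiocyte markers were also summed. Endothelial sums were 8.5 to 14.4 FPKM in sensitive and 11.7 to 12.8 FPKM in resistant libraries, nearly all from EGFL7, with KDR and ERG listed at 0 throughout. Leukocyte sums were 249.6 to 268.1 and 2.8 to 5.4 FPKM, mostly LYZ in the sensitive libraries, with PTPRC listed at 0 throughout. Cholangiocyte sums were 4.0 to 5.6 and 108.1 to 125.3 FPKM, mostly KRT7 in the resistant libraries, where KRT19 was at most 0.0731 FPKM.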

Additional observations from a re-analysis of the deposited data

How the results depend on the processing

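The 6 tested genes of the axis kept their direction and their side of the threshold in all 88 refits run, over 15 alternatives. The filter on a mean of at least 5 FPKM left out SPINT1 and MST1. For MST1R, SPINT1, HPN and MST1, which passed the main filter through 1 group only, the direction was fixed in advance. Only MET and SPINT2 were free to change direction. With each library left out in turn, the log2 fold change ranged from 1.75 to 2.46 for MET, 4.61 to 4.74 for MST1R, 1.50 to 1.58 for SPINT1, 2.29 to 2.70 for SPINT2, -4.08 to -3.80 for HPN and -1.99 to -1.66 for MST1. With a pseudocount of 0.1 the fold changes of genes low in 1 group grew, to 7.73 for MST1R, 3.66 for SPINT1, -6.11 for HPN and -3.49 for MST1, by construction. Over all genes the count of 7920 called genes fell to 4973 of 7396 tested with a mean of at least 5 FPKM, where fewer genes are tested (9 of 18 tested receptor kinases were then higher, in place of 15 of 26), and to 4357 against a 1.5-fold change, and it ranged from 6675 to 9442 with a library left out. Without a filter 7 of the 9 genes of the axis were called, with HGF and HGFAC not past the test (limma adjusted p = 0.541 and 0.425). With the replicate number as a block, 7193 genes and the same count of 6 genes of the axis were called. Deviations of samples with the same number correlated at -0.422, 0.072 and -0.228, and those with different numbers at -0.155 to 0.346. No sign of pairing by number was seen, but deviations taken within groups of 3 cannot exclude it. Groups of 3 and low read numbers limit what can be said of HGF, HGFAC and ST14.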
